A study of Macaca mulatta with 6 samples.

Results

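This account follows 9 genes of the B lymphocyte lineage (DNTT, VPREB1, EBF1, PAX5, LEF1, CD79A, CD79B, MS4A1 and JCHAIN) in RNA from single blood-forming colonies of rhesus macaque bone marrow. They are 9 of the 32386 rows of the count table, were found by gene symbol, and each matched 1 row. They were chosen with their values in these libraries already known, so the difference between the groups is described below for them without a test. B cells arise in the marrow from lymphoid progenitors that turn on EBF1 and then PAX5, rearrange their antibody genes with the RAG recombinase and terminal transferase, and display a pre-B cell receptor before the mature receptor. Colonies of the granulocyte-macrophage type are normally made of myeloid cells, in which this programme is off.

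The colonies labelled TET2 uniallelic (UA, genotype TET2+/-, 3 libraries) carried a predicted loss-of-function mutation in 1 allele, and those labelled TET2 wild type (WT, 3 libraries) carried none on DNA analysis. Both groups came from CD34+ marrow cells taken 15 months after an autologous transplant of CD34+ cells treated with CRISPR/Cas9, so the transplant setting is shared by both. Each colony was a granulocyte-macrophage colony (CFU-GM) grown from a single plated cell for 14 days, then picked and split between RNA and DNA. How many animals gave colonies, and of what age or sex, is not in the labels, so p-values speak only of how these 6 libraries vary, some of which may be technical.

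Total counts were 6334264 to 17684447 in the UA libraries and 10574104 to 25485143 in the WT libraries. TET2, which encodes an enzyme that oxidizes 5-methylcytosine, had 231 ± 6.65 CPM in UA colonies and 93.8 ± 14.9 in WT colonies (SD, n = 3 each), where CPM is the read count scaled to library total and TMM factor. Its log2 fold change was 1.30 (SE 0.16, edgeR's adjusted p = 3.93e-05), so the RNA level does not check the genotype labels. The UA libraries were more alike than the WT libraries. Summed over genes, the chi-square between a pair of UA libraries was 4.21 to 5.09 times that of counting alone, against 11.6 to 76.5 times between WT libraries, with the upper values in the pairs that include WT replicate 1. Such an excess can grow with depth, and WT replicate 1 was the deepest library, but the part of depth in these values was not tested. WT replicates 2 and 3, with totals of 10574104 and 12005869, stood at 11.6. UA replicates 1 and 2, with totals of 17684447 and 9861817, stood at 5.09. Correlations of log2 CPM differed less, at 0.975 to 0.982 between UA libraries and 0.960 to 0.967 between WT libraries. No pair was within counting noise, and the libraries were kept as 6 samples, as labelled. Repeat libraries of 1 RNA can exceed counting noise as well, so the UA libraries as 3 colonies and as repeats of fewer cannot be told apart from these files, and each UA SD, n = 3 and p-value depends on which holds. Counts with the UA libraries summed to 1 sample are given beside the main ones for that reason. Granulocyte and monocyte markers, a list that includes MPO, ELANE, LYZ and CD14, were present in both groups, at a summed 32391 to 33371 CPM in UA libraries and 2890 to 3342 CPM in WT libraries. None of the 16 matched markers was at 0 in either group. In UA colonies the highest mean of the list was that of MPO, the myeloperoxidase of granulocytes, and in WT colonies that of CD14. MPO had 16743 ± 147 CPM in UA and 810.4 ± 114 CPM in WT colonies (SD, n = 3 each). CD14, the co-receptor for lipopolysaccharide on monocytes, was lower in UA, with 21.7 ± 2.95 CPM in UA and 1147 ± 233 CPM in WT colonies (log2 fold change -5.73, SE 0.22, edgeR's adjusted p = 2.72e-08), and so was FCGR1A, an Fc receptor (log2 fold change -0.61, edgeR's adjusted p = 0.017). In such bulk RNA, fewer cells of a type and less RNA per cell cannot be told apart.

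All 9 B-lineage genes were higher in every UA library than in any WT library. Together they made up 1782 to 1829 CPM in the UA libraries and 61.6 to 68.9 CPM in the WT libraries. Of 13768 genes tested, 39.2% lay above every WT library in all UA libraries, and since the genes were chosen on this contrast nothing is read from their count of 9. All 9 passed the filter on low counts, and passing it could rest on the UA libraries alone. The ratio of the group means ran from 2.63-fold for MS4A1 to 152-fold for EBF1 over the 8 genes with more than 3 WT counts, with a median of 63.9-fold.

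**Figure D1:**
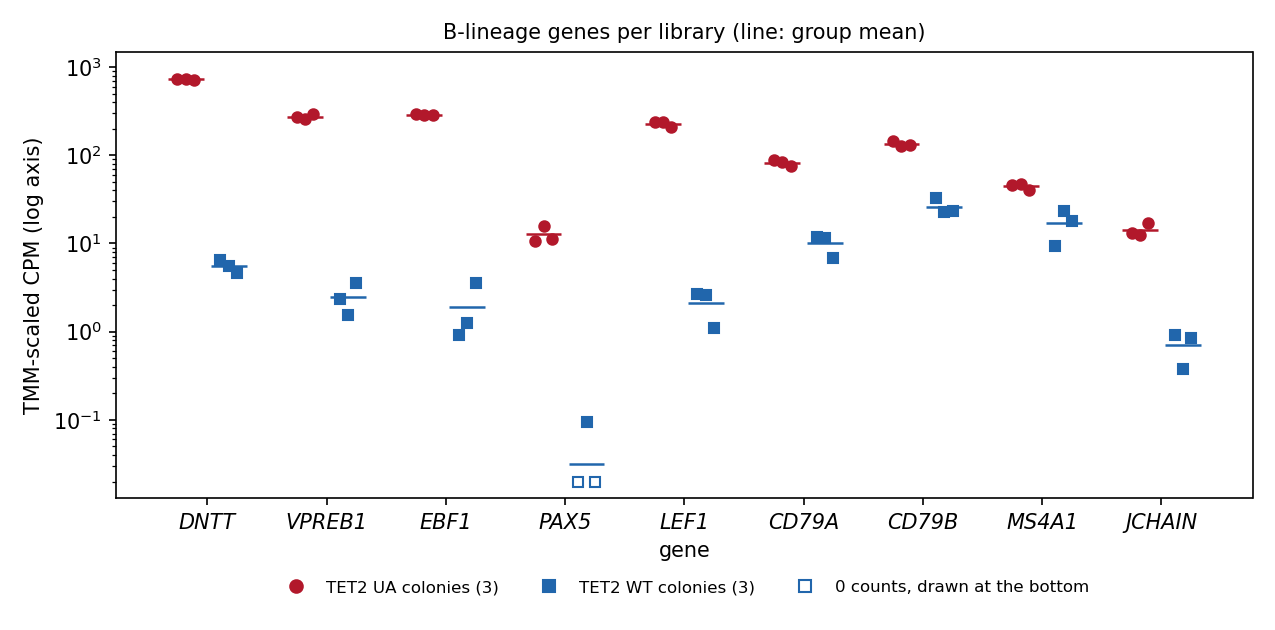
TMM-scaled CPM (log axis) of the 9 B-lineage genes in 3 UA colonies (circles) and 3 WT colonies (squares), with a line at each group's mean; open squares are libraries with 0 counts. The UA points lie above the WT points for each gene, most closely for MS4A1, where the lowest UA library is 1.73 times the highest WT library.

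DNTT and VPREB1 belong to the stage at which antibody genes are joined. DNTT encodes terminal deoxynucleotidyl transferase, which adds bases at the joints of rearranging antibody and T cell receptor genes. It had 731, 737 and 721 CPM in UA replicates 1 to 3, against 6.53, 5.55 and 4.63 CPM in WT replicates 1 to 3. The UA values lay within a few percent of each other, and the group means differed by 131-fold (log2 ratio 7.03, SE 0.14). The raw counts behind them were 13489, 7663 and 4880 in UA and 143, 58 and 55 in WT, so DNTT was above the 3-count floor in every WT library. In the authors' deposited table DNTT lies on chromosome 9 from 91768467 to 91803475; the table itself gives no build, and Mmul_8.0.1 is the one in the submitters' processing notes.

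VPREB1 encodes a chain of the surrogate light chain, which pairs with the new heavy chain in the pre-B cell receptor. It had 269, 260 and 295 CPM in UA replicates 1 to 3, against 2.38, 1.53 and 3.54 CPM in WT replicates 1 to 3. The groups were 111-fold apart (log2 ratio 6.79, SE 0.34). The other surrogate light chain gene, IGLL1, had 40, 12 and 7 counts in UA and 0, 3 and 6 in WT. Its log2 fold change was 2.62 (SE 0.98, edgeR's adjusted p = 0.0356), and it was not called with UA replicate 1, 2 or 3 left out (2.15, 2.74 and 2.78, edgeR's adjusted p = 0.157, 0.0674 and 0.0573). It was called without WT replicate 3 (3.68, edgeR's adjusted p = 0.0197), but not without WT replicate 1 or 2 (1.85 and 2.79, edgeR's adjusted p = 0.0553 and 0.0558), with the replicate number as a block (2.76, edgeR's adjusted p = 0.0653) or with the UA libraries summed to 1 sample (2.75, edgeR's adjusted p = 0.195). RAG1 was not matched to a row, and is not analysed here. RAG2, the partner subunit of the recombinase, had 498, 205 and 134 counts in UA replicates 1 to 3, against 5, 8 and 1 in WT replicates 1 to 3. Its log2 fold change was 6.05 (SE 0.49, edgeR's adjusted p = 2.73e-06), with 6.92 without WT replicate 2 and 5.62 without WT replicate 3. No WT library reached the UA range of 19.7 to 27.0 CPM.

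EBF1 and PAX5 are the transcription factors that specify the B lineage and hold cells to it. EBF1 had 291, 288 and 283 CPM in UA replicates 1 to 3, against 0.914, 1.24 and 3.54 CPM in WT replicates 1 to 3. WT replicate 3 held most of the few WT reads, 42 of 75. The log2 ratio was 7.24 (SE 0.63), 8.02 without that library and 6.89 without WT replicate 1. EBF1 has no position in the authors' deposited table.

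PAX5, which represses genes of other lineages in B cells, had 199, 164 and 77 counts in UA replicates 1 to 3, against 0, 1 and 0 in WT replicates 1 to 3. These were 10.8, 15.8 and 11.4 CPM in UA, while the counts of 0 allow up to 0.137 CPM in WT replicate 1 and 0.253 CPM in WT replicate 3. With the summed counts scaled to each group's summed library totals and TMM factors, the ratio was 546. Its 95% exact counting interval was 97.5 to 21623, which covers counting error only. Without WT replicate 2 the gene had no WT count, and the ratio was then a lower bound of 7.12 on the log2 scale against 3 counts over the group. Without WT replicate 1, the deepest library, the log2 ratio was 8.08, against 9.09 with it. PAX5 lies on chromosome 15 from 47084025 to 47277549 in the deposited table.

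LEF1, a transcription factor of the Wnt pathway that early B and T cells use, had 236, 236 and 210 CPM in UA replicates 1 to 3, against 2.65, 2.58 and 1.09 CPM in WT replicates 1 to 3. The means were 108-fold apart (log2 ratio 6.75, SE 0.35). It lies on chromosome 5 from 106945372 to 107068797 in the deposited table. LEF1 is shared with T cells, and its relative TCF7 had 15.2 ± 0.776 CPM in UA and 2.94 ± 1.10 CPM in WT colonies (SD, n = 3 each), for a log2 fold change of 2.40 (SE 0.33, edgeR's adjusted p = 8.82e-05).

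CD79A and CD79B encode the paired signalling chains of the B cell receptor and of the pre-B cell receptor. CD79A had 88.1, 83.7 and 75.0 CPM in UA replicates 1 to 3, against 11.7, 11.6 and 6.82 CPM in WT replicates 1 to 3. The means differed by 8.20-fold (log2 ratio 3.04, SE 0.24). CD79B had 144, 129 and 130 CPM in UA replicates 1 to 3, against 32.7, 22.7 and 23.1 CPM in WT replicates 1 to 3. The means differed by 5.13-fold (log2 ratio 2.36, SE 0.19). The WT libraries thus held 458 CD79A counts and 1226 CD79B counts, where the same libraries held 1 PAX5 count. In the deposited table CD79A lies on chromosome 19 from 37638675 to 37644071 and CD79B on chromosome 16 from 57545611 to 57551215.

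MS4A1 and JCHAIN are known from later stages as well, though JCHAIN is not confined to them. MS4A1 encodes CD20, a surface protein that B cells gain as they mature. It had 45.9, 47.4 and 40.3 CPM in UA replicates 1 to 3, against 9.37, 23.3 and 18.1 CPM in WT replicates 1 to 3. The means differed by 2.63-fold (log2 ratio 1.39, SE 0.35), the smallest ratio of the 9, and WT replicate 1 held the least. JCHAIN encodes the chain that joins units of IgM and IgA and is made in bulk by plasma cells. It had 13.3, 12.6 and 17.0 CPM in UA replicates 1 to 3, against 0.914, 0.382 and 0.842 CPM in WT replicates 1 to 3. The means differed by 20.0-fold (log2 ratio 4.33, SE 0.36), on 34 WT counts in all. MS4A1 lies on chromosome 14 from 13762141 to 13780656 and JCHAIN on chromosome 5 from 63956146 to 63980659 in the deposited table.

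The size of the difference between the groups was unlike from gene to gene. Each WT library can be set against the UA mean of the same gene. EBF1, DNTT, VPREB1 and LEF1 stood at 0.318% to 1.29% of their UA means in the WT libraries. PAX5 stood at 0.756% in WT replicate 2, on 1 count, while the counts of 0 allow up to 1.08% in WT replicate 1 and 2.0% in WT replicate 3. JCHAIN stood at 2.68% to 6.40%, CD79A at 8.29% to 14.2%, CD79B at 16.9% to 24.3% and MS4A1 at 21.0% to 52.4%. These percentages compare each gene with itself, since transcript lengths were not used and levels are not ranked between genes.

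**Figure D2:**
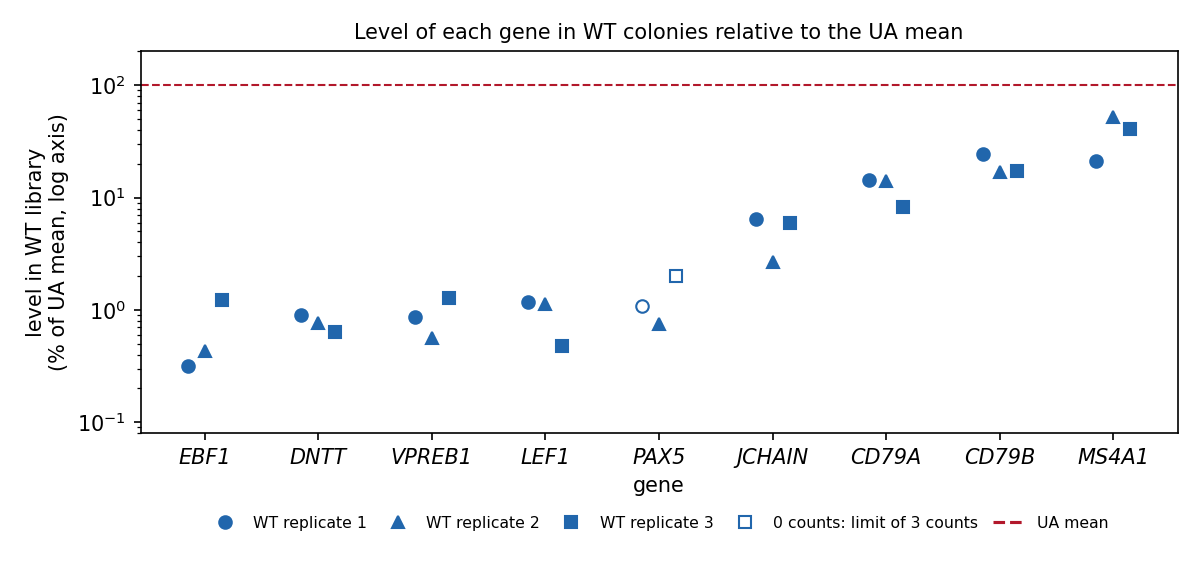
Level of each B-lineage gene in the 3 WT colonies as a percentage of its mean over the 3 UA colonies (log axis; the dashed line is the UA mean, open symbols stand at the limit that 0 counts allow). EBF1, DNTT, VPREB1 and LEF1 lie at 0.318% to 1.29%, and MS4A1 reaches 52.4%.

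The WT libraries did not hold the genes in one order. DNTT, CD79A, CD79B, LEF1 and JCHAIN were highest in WT replicate 1, EBF1 and VPREB1 in WT replicate 3, and MS4A1 and the lone PAX5 count in WT replicate 2. The coefficient of variation (CV) over the WT libraries had a median of 40.6% over the 9 genes, where counting alone gives a median of 17.4%. Over the UA libraries it had a median of 6.71%, where counting alone gives 2.72%. For DNTT and EBF1 the UA libraries differed by no more than counting, with CVs of 1.12% and 1.44% against 1.17% and 1.86% from counting. The other 7 genes exceeded it in UA, among them PAX5 with 21.5% against 8.86%, and all 9 exceeded it in WT.

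**Figure D3:**
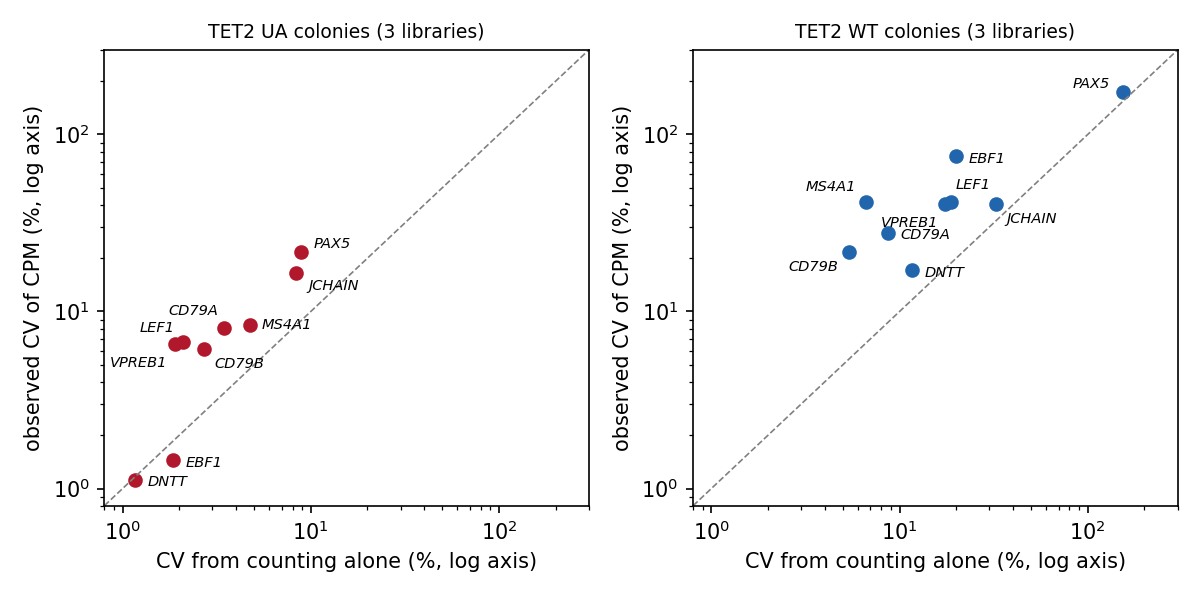
Observed CV of CPM over 3 libraries against the CV that counting alone would give, for each B-lineage gene, in UA colonies (left) and WT colonies (right), both axes in percent on a log scale; on the dashed line the values are equal. In UA colonies DNTT and EBF1 lie at or under the line, and in WT colonies EBF1 reaches 75.3% and MS4A1 41.7%.

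Other genes of the same programme were mostly higher in UA colonies too. The lists were chosen with earlier results of these data known, so their counts are not independent of these data. Of 78 genes in the lists of early lymphoid, B cell receptor and plasma cell genes, 72 matched a row and 67 were tested. Of these, 44 were higher in UA and 13 lower at an edgeR adjusted p under 0.05, with a median log2 fold change of 1.17. Over all 13768 genes tested, 34.6% were higher and 31.4% lower, with a median of 0.12. With the UA libraries summed to 1 sample, which leaves the WT libraries to set the spread, 35 were higher and 9 lower. The granulocyte list above moved with them, with 12 of 16 higher and 2 lower and a median log2 fold change of 2.16, and its part in these counts was not tested.

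Early lymphoid and recombination genes were higher in 16 of 22 tested and lower in 2. FOXO1, a transcription factor that B cell precursors need to express the RAG genes in mice, had 304 ± 21.3 CPM in UA and 25.9 ± 1.54 CPM in WT colonies, a log2 fold change of 3.55 (SE 0.16, edgeR's adjusted p = 5.94e-08). ARPP21, a phosphoprotein gene, had 303 ± 21.9 CPM in UA and 1.06 ± 0.905 CPM in WT (log2 fold change 8.24, SE 0.40, edgeR's adjusted p = 1.15e-07). The log2 fold change of ARPP21 was 9.07 without WT replicate 3 and 7.74 without WT replicate 1. ID3, an inhibitor of E proteins, rose by 4.23 on the log2 scale and FLT3, a cytokine receptor of progenitors, by 2.32 (edgeR's adjusted p = 1.43e-06 and 3.82e-06). IL7R, the receptor for interleukin-7, went the other way, with 17.3 ± 1.42 CPM in UA and 81.3 ± 4.66 CPM in WT (log2 fold change -2.23, edgeR's adjusted p = 2.06e-06). STMN1, a microtubule regulator of dividing cells, fell as well, while ID2, LIG4, ADA and BCL11A were not called. MME, the CD10 antigen of early B cells, had 78, 25 and 11 counts in UA and 0 in WT, at least 47.2-fold higher against 3 counts over the WT group. HMHB1 had 0 counts in every library.

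B cell receptor and signalling genes were higher in 19 of 28 tested and lower in 4. BACH2, a transcriptional repressor of B cells, had 207 ± 16.2 CPM in UA and 2.78 ± 0.377 CPM in WT (log2 fold change 6.23, SE 0.20, edgeR's adjusted p = 1.22e-08). BLNK, the adaptor that links the receptor to its kinases, rose by 4.13 on the log2 scale (edgeR's adjusted p = 1.74e-07). CXCR5, a chemokine receptor, rose by 3.58 and CD72, an inhibitory co-receptor, by 3.06 (edgeR's adjusted p = 2.88e-06 and 2.47e-06). CR2, a complement receptor of mature B cells, had 63, 30 and 25 counts in UA and 0 in WT, at least 48.8-fold higher against 3 counts over the WT group. POU2AF1, a co-activator of B cells that was too low to test, had 9, 20 and 11 counts in UA and 0 in WT, at least 16.6-fold higher on the same floor.

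The 4 that fell were CD40, BTK, POU2F2 and SPI1, of which BTK and SPI1 are also genes of myeloid cells. CD40, a co-stimulatory receptor of B cells and of other antigen-presenting cells, had 10.1 ± 2.64 CPM in UA and 179 ± 49.7 CPM in WT (log2 fold change -4.14, SE 0.27, edgeR's adjusted p = 7.54e-07). CD22, SYK, LYN, TNFRSF13B and PLCG2 were not called. SYK had a log2 fold change of 0.23 and LYN one of 0.14 (edgeR's adjusted p = 0.156 and 0.418); both kinases serve myeloid receptors as well.

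Plasma cell genes were divided, with 9 of 17 tested higher and 7 lower. IRF4, a transcription factor of activated B cells and plasma cells, rose by 2.49 on the log2 scale, TXNDC11 by 2.27 and FAM46C by 1.96 (edgeR's adjusted p = 1.83e-05, 3.36e-06 and 5.53e-06). XBP1, a transcription factor of the secretory apparatus, had 272 ± 20.5 CPM in UA and 564 ± 66.2 CPM in WT (log2 fold change -1.05, edgeR's adjusted p = 9.26e-05). TXNDC5 and FKBP11, proteins of the endoplasmic reticulum, had log2 fold changes of -2.54 and -1.78 (edgeR's adjusted p = 4.63e-05 and 0.000112). The other genes that fell were SDC1, SSR4, SEC11C and SLAMF7.

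**Figure D4:**
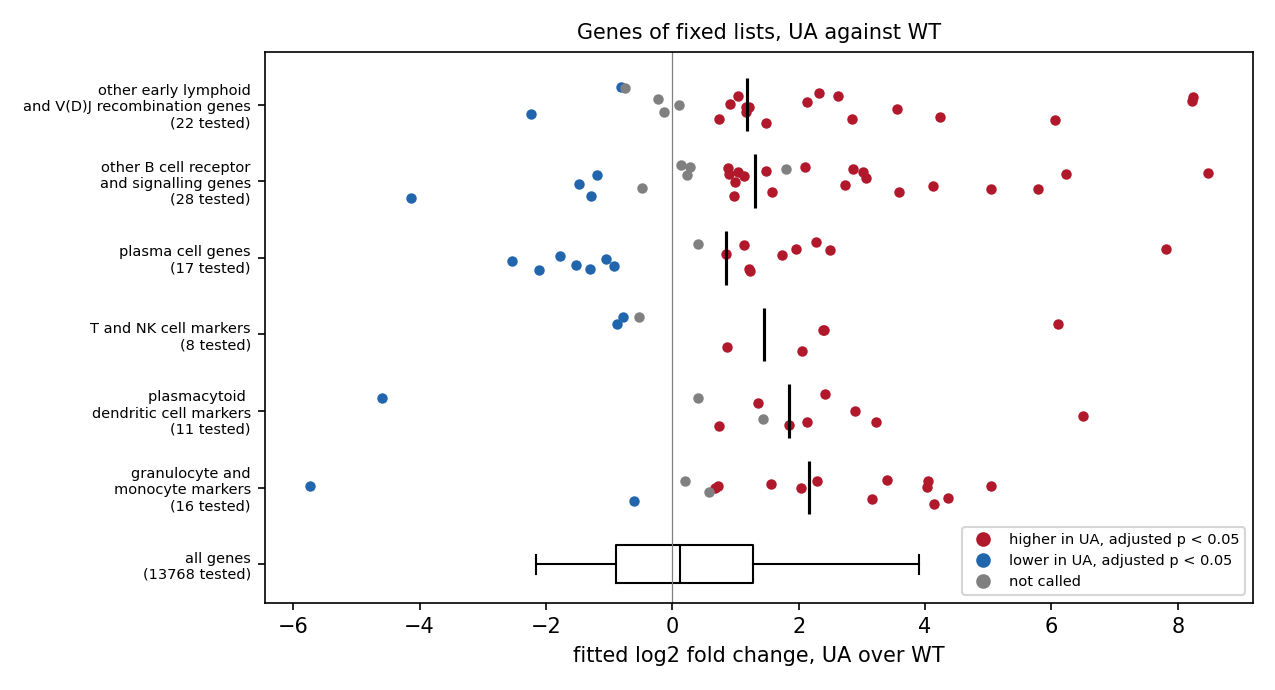
Fitted log2 fold change (UA over WT) of each tested gene in 6 lists, with a black line at the list's median and a box for all genes (median and quartiles, whiskers at the 5th and 95th percentiles). Medians are 1.19, 1.31 and 0.85 in the early lymphoid, B cell receptor and plasma cell lists, against 0.12 for all genes; fitted values of genes with no WT count (MME, CR2, CADPS2) depend on the prior count.

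Markers of other cells that share some of these genes were also measured. T and NK cell markers were higher in 5 of 8 tested and lower in 2, and 9 of the 17 matched were too low to test. The share higher was 62.5%, against 65.7% over the 3 other B-lineage lists. Over all genes tested, 34.6% were higher and 31.4% lower. Their summed level was 102 to 113 CPM in UA libraries and 70.2 to 74.4 CPM in WT libraries. CD3E, a chain of the T cell receptor complex, had 1, 5 and 1 counts in UA and 0 in WT, and CD5, BCL11B, CD8A and KLRD1 had 3, 5, 2 and 1 counts over the UA group and 0 in WT. CD4, which monocytes carry too, rose by 6.10 on the log2 scale and NCAM1 by 2.05 (edgeR's adjusted p = 9.84e-06 and 0.00045), and CD4 by 5.39 without WT replicate 1 and 7.65 without WT replicate 2. ZAP70, a T cell kinase, had a log2 fold change of 2.39, NKG7 one of -0.87 and LCK one of -0.78 (edgeR's adjusted p = 0.0079, 0.00465 and 0.00758). With the UA libraries summed, these 3 were 2.36, -0.82 and -0.72 and not called (edgeR's adjusted p = 0.112, 0.144 and 0.204), and ZAP70 was 3.13 without WT replicate 3. Without WT replicate 2, the log2 fold change of ZAP70 was 1.97. CD3E was thus at or near 0 in both groups, while CD3D had 8.89 ± 2.54 CPM in UA and 4.92 ± 0.473 CPM in WT colonies (SD, n = 3 each), and CD3G had 72, 55 and 5 counts in UA and 2, 0 and 0 in WT. The part of T cells in the levels of DNTT and LEF1 was not tested.

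Plasmacytoid dendritic cells can share TCF4, IRF8 and JCHAIN with B cell precursors. Their markers were higher in 8 of 11 tested and lower in 1, with a summed level of 681 to 733 CPM in UA libraries and 366 to 415 CPM in WT libraries. The share higher was 72.7%, the same as in the early lymphoid list, against 34.6% of all genes tested. CLEC4C, their defining lectin receptor, had 68, 24 and 16 counts in UA replicates 1 to 3, against 1, 0 and 0 in WT replicates 1 to 3. The ratio, scaled as for PAX5, was 134, with a 95% exact counting interval of 23.6 to 5344, and it rests on the lone count in WT replicate 1. IRF8 rose by 2.13 on the log2 scale and PLD4 by 1.85 (edgeR's adjusted p = 1.17e-06 and 0.00011), while SMPD3 rose by 2.89 (edgeR's adjusted p = 0.00153, and by 3.89 without WT replicate 1). TCF4, which the early lymphoid list holds too, rose by 0.74 (edgeR's adjusted p = 0.000604) and was not called with the UA libraries summed (0.78, edgeR's adjusted p = 0.0639). GZMB, granzyme B, was lower, with 4.92 ± 0.713 CPM in UA and 118 ± 26.6 CPM in WT (log2 fold change -4.60, edgeR's adjusted p = 1.8e-07). LAMP5 had 0 counts in every library, and CXCR3 had 0 in WT. The part of these cells in the values of the B-lineage genes was not tested.

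Markers of stromal cells, endothelial cells and megakaryocytes differed between the groups as well, in lists chosen after values of these data were seen and so without a test. The 6 matched of 7 stromal markers summed to 919 to 951 CPM in UA libraries and 109 to 125 CPM in WT libraries, with 5 higher in every UA library than in any WT library and DCN, a proteoglycan, lower. DCN alone made up most of the WT sum, with 21.6 ± 1.01 CPM in UA and 113 ± 9.43 CPM in WT colonies (SD, n = 3 each). COL1A1, a chain of type I collagen, had 319 ± 7.74 CPM in UA and 0.810 ± 0.0401 CPM in WT colonies (SD, n = 3 each). The 7 endothelial markers summed to 544 to 567 CPM in UA libraries and 292 to 313 CPM in WT libraries, with 6 higher and ESAM lower. ESAM alone made up most of the WT sum, with 145 ± 6.83 CPM in UA and 254 ± 17.7 CPM in WT colonies (SD, n = 3 each). The 6 megakaryocyte markers summed to 724 to 742 CPM in UA libraries and 417 to 465 CPM in WT libraries, with 4 higher, among them PF4, platelet factor 4 (204 ± 8.27 CPM in UA and 0.609 ± 0.199 CPM in WT, SD, n = 3 each), and TUBB1 lower. Nearly all of the WT sum was TUBB1, with 203 ± 15.1 CPM in UA and 440 ± 25.2 CPM in WT colonies (SD, n = 3 each). The sums thus hide how low most of the other markers of these 3 lists were in WT. Over all genes tested, 39.2% lay above every WT library in all UA libraries. No matched marker of these 3 lists was at 0 over either group. The part of such cells in the values of the B-lineage genes was not tested.

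By the measure used for likeness to DNTT, the gene of the 9 with the highest mean CPM, the nearest genes over the 6 libraries were MMP13, SERPINH1, TM4SF18, AQP1 and RAMP2. Their root-mean-square differences from DNTT, in log2 CPM centred on each gene's own mean, were 0.14, 0.16, 0.17, 0.19 and 0.24. MMP13 had 30.2 ± 2.95 CPM in UA and 0.121 ± 0.0539 CPM in WT colonies, and AQP1, a water channel, 22.9 ± 3.85 CPM in UA and 0.0305 ± 0.0528 CPM in WT. All 5 were near 0 in WT, where the prior count of 2 sets the level, so the measure does not show that their profiles are like that of DNTT. A further limit is that 34 genes lay within a difference of 0.5.

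Reads were not assigned to a strand, so genes that overlap cannot be told apart. In the RefSeq table of assembly T2T-MMU8v2.0, a long non-coding RNA gene overlaps DNTT, another overlaps PAX5, and a protein-coding gene without a name of its own overlaps CD79A. No annotated gene there overlaps EBF1, LEF1, VPREB1, CD79B, MS4A1 or JCHAIN.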

How the data were processed

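RNA of 6 samples, labelled as single colonies, was turned into cDNA with the SMART-Seq V4 kit and into Nextera XT libraries, per the labels' protocols; neither strand nor molecule is marked, so PCR copies count as reads. The submitters' processing notes name build Mmul_8.0.1 and bcl2fastq; the aligner and the counter were not given in the sources used here. Raw counts per gene were deposited by the authors. Their second deposited table holds, per the file headers, a signal (mean normalized count), a log2 fold change and error, a score (test statistic) and p-values, plain and adjusted. Its symbols and positions are used here, and its values are printed only in the closing observations. Of 32386 rows, 18978 had a symbol, from the row name, that table or a table of gene names.

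Counts were tested with edgeR 4.0.16 (R 4.3.3; quasi-likelihood F-test, robust) over all 6 libraries, after filterByExpr (minimum count 10, minimum total 15; 13768 genes) and TMM scaling (factors 0.86 to 1.07). The Benjamini-Hochberg adjustment ran over the whole set of tested genes, with calls under 0.05, and the SE is the log2 fold change over the square root of F. For the 9 B-lineage genes, ratios of mean CPM are given with a delta-method SE. The 9 genes and the gene lists were chosen with earlier results of these data known. Genes named from a list are its called genes of smallest p with a mean of at least 1 CPM, up to 6, besides fixed markers (1 of which is not reported here), and others are named for a count of 0 or as the few that fell or were not called, after their values were seen. Alternatives used limma 3.58.1, DESeq2 1.42.0, other scalings, filters, thinning and left-out libraries. Intervals and floors of 3 counts cover counting error only.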

Additional observations from a re-analysis of the deposited data

How the results depend on the processing

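The 9 B-lineage genes stayed higher in UA under every scaling, test, thinning and left-out library tried. They were chosen on this contrast and did not overlap between the groups, so leaving out a library could scarcely reverse them. Of 117 alternative values, 2 moved by more than the spread between libraries, both of PAX5 (log2 ratio 9.09, against 7.41 with limma-voom and 7.12, a lower bound, without WT replicate 2). The 117 include a sum over each gene's rows, which repeats the main value because each gene matched a single row. Alternatives were run for the 9 B-lineage genes, TET2, the tested fixed markers and the called genes of smallest p in each list. None of these reversed. Among the list genes and markers, 11 of 551 values lost their call, those of IGLL1, ZAP70, NKG7, LCK and TCF4 given above. Other genes named here, such as STMN1, BTK, SPI1 and FCGR1A, were not put through the alternatives. Over all genes, 4770 were higher and 4321 lower, against 2950 and 2410 with the UA libraries summed to 1 sample, where fewer samples carry the spread. Leaving out 1 library gave 4074 to 4987 higher and 3755 to 4659 lower, and 40 to 45 higher and 12 to 14 lower among the other B-lineage genes. A replicate block gave 4765 higher and 4174 lower, and 43 and 13. Deviations of same-numbered libraries from their group means correlated at 0.013 to 0.022 over 3 pairs, and those of differently numbered libraries at -0.013 to -0.00034. These values are small and tied to each other, since each group's deviations are taken from its own mean. Whether same-numbered libraries share a batch thus cannot be told from them, and the labels name none. Library size alone moved the median of all genes by 0.16 on the log2 scale, and no filter on low counts by 0.79 over the 23872 genes then tested, with 5932 higher and 4426 lower. WT depth limits the genes with few WT counts. Among them are MME and CR2 with 0 counts over the WT group, PAX5 and CLEC4C with 1, CD4 with 8, IGLL1 with 9 and RAG2 with 14.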

Other observations

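Antibody genes themselves were looked at after the values above were seen, so they carry no test. IGHM, the constant region of the mu heavy chain, had 433, 417 and 422 CPM in UA replicates 1 to 3, against 185, 158 and 172 CPM in WT replicates 1 to 3. IGKC, the constant region of the kappa light chain, had 61.1, 56.6 and 64.1 CPM in UA replicates 1 to 3, against 36.8, 21.6 and 23.7 CPM in WT replicates 1 to 3. The groups did not overlap for either gene, where 39.2% of all genes tested lay above every WT library in all UA libraries. The WT libraries held 7741 IGHM counts. The 16 rows with a symbol of an antibody variable gene summed to 261, 172 and 74 counts in UA and 104, 45 and 26 in WT, values that are uncertain because related variable genes can share reads.

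The authors' deposited table lists 7 of the 9 B-lineage genes, with log2 fold changes of -3.60 to -1.27 and means of normalized counts of 4.61 to 66.3. In the same table TET2 has a log2 fold change of 1.73 and MPO one of -4.27, opposite in sign to each other, whereas both genes and the 9 B-lineage genes were higher in UA in the counts. The authors' deposited table does not name its libraries or direction. The mean raw counts of the same genes in the 6 libraries were 73.5 to 4381.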
